A study of Mus musculus with 2 samples.

Results

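T cell receptor beta variable (Trbv) segments were followed as a gene family in splenic CD8 T cells. Every symbol in the feature lists that starts with Trbv was taken, which gave 35 of 31053 features. All 35 identifiers matched the annotation, 22 as variable genes and 13 as variable pseudogenes. They lie within 667 kb of mouse chromosome 6 (mm10, GRCm38), and 1 of them, Trbv31, is on the minus strand and lies 276 kb beyond Trbv30.

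The cells came from the spleens of wild-type C57BL/6J mice in a transfer experiment. Total CD8 T cells of CD45.1 mice aged 3 months were transferred into CD45.2 mice aged 24 months. After 1 month, when the hosts were 25 months old, CD3e+CD8a+ cells were sorted by the congenic marker into CD45.2+ cells of the host (old recipient) and CD45.1+ cells of the donor (young donor). Each population gave 1 droplet gene expression library, and the labels do not say whether a library holds 1 mouse or a pool. No test between the populations was possible, since library and group cannot be told apart. Each interval in the text is a 95% one and covers counting error only.

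A T cell receptor is a pair of an alpha and a beta chain. During development in the thymus each T cell joins 1 variable, 1 diversity and 1 joining segment of the beta locus and places them before a constant gene, Trbc1 or Trbc2. The Trbv segment supplies the first and second loops of the chain's binding site and the start of the third loop. The descendants of a T cell keep its rearranged gene, so cells of a clone share their segment, whereas cells that share a segment need not belong to a clone. CD8 T cells that have met antigen can expand as clones, and cells that express granzyme K (Gzmk) are known to gather in old mice.

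The germline ends of the segments that the results turn on are shown to compare close relatives. The counts do not give where reads lay within a segment, so these ends need not be what told segments apart. Each line gives the last 60 bases of the GENCODE M21 transcript, 5′ to 3′, and the capitals mark the stretch from the codon of the conserved cysteine onwards, found as TGTGCNAGC, where the third loop starts.
Trbv16: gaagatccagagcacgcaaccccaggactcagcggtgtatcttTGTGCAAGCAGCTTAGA
Trbv13-1: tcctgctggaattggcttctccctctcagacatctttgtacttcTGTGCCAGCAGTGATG
Trbv13-2: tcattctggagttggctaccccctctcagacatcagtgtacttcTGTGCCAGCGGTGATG
Trbv13-3: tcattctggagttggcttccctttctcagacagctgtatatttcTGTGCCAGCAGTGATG
Trbv12-1: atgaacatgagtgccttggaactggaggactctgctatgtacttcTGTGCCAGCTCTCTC
Trbv12-2: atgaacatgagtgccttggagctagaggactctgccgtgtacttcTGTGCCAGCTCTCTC
Trbv17: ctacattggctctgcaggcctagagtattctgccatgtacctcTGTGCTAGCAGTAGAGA
Trbv19: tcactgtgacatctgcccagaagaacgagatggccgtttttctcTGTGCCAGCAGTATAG
Trbv29: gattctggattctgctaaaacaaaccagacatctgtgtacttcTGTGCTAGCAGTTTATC
Trbv5: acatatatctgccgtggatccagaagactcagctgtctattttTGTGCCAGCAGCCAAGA
Trbv31: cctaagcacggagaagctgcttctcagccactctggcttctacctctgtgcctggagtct

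These stretches end the coding exon of each segment. On the plus strand Trbv12-1 is at chr6:41114008-41114067, Trbv13-1 at chr6:41116409-41116468, Trbv12-2 at chr6:41119305-41119364, Trbv13-2 at chr6:41121773-41121832 and Trbv13-3 at chr6:41130526-41130585. Further along lie Trbv16 at chr6:41152171-41152230, Trbv17 at chr6:41163497-41163556, Trbv19 at chr6:41178989-41179048 and Trbv29 at chr6:41271822-41271881. Trbv5 is at chr6:41062744-41062803, and Trbv31, on the minus strand, is at chr6:41557693-41557752. The motif was found in 21 of the 35 segments (60%) on the transcript strand, in 17 of the 22 that led any cell and in 4 of the 13 that led none. Trbv31 does not hold these letters in its last 60 bases and is printed without capitals. The closest pair was Trbv13-2 and Trbv13-3, identical at 90.6% of 340 aligned bases, and their ends differ at 8 of 60 bases. Trbv13-1 and Trbv13-2 were identical at 88.7% and also differ at 8 bases of the end, whereas Trbv12-1 and Trbv12-2 were identical at 88.3% and differ at 4. Every stretch of 90 bases in the 22 segments that led a cell occurred in no other Trbv transcript, and the median identity over their 231 pairs was 65.5%.

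Cells with at least 500 genes and at most 10% mitochondrial UMIs were kept, 5619 of 6174 barcodes (91.0%) in the old recipient and 8001 of 8588 (93.2%) in the young donor, with medians of 7044 and 7928 UMIs. The leading segment of a cell is the Trbv gene with the most UMIs in it, and ties were dropped. Such a segment could be given to 97.1% of the recipient's cells (96.6 to 97.5) and to 96.5% of the donor's (96.1 to 96.9). Another 98 and 162 cells were tied, and 64 and 115 cells held no Trbv UMI. The leading segment held 88.8% and 89.4% of all Trbv UMIs in its cells, with medians of 9 and 8 UMIs. The sort was checked on its markers. A Cd3 or Cd8 gene was found in 99.96% and 99.99% of kept cells and Cd4 in 0 and 2 cells. Among the 64 and 115 cells without a Trbv UMI, Trdc, the constant gene of the delta chain, was at 0. At least 1 of 5 B cell genes was found in 58.9% and 61.0% of kept cells, with Ighm alone in 54.1% and 56.1%. Cd79b was found in 14.3% and 16.1%, whereas Ms4a1 was found in 2 and 0 cells. At least 1 of 5 myeloid genes was found in 51.5% and 53.1%, with Cst3 alone in 49.8% and 51.5% and Lyz2 in 0.231% and 0.287%. The myeloid list summed to 155.8 and 151.3 UMIs per 1000000 in the Gzmk gate described below, beside 93.6 and 85.1 in naive-like cells, and the B cell list to 77.5 and 81.3 beside 235.0 and 205.6. Of the myeloid list, Cd68 was found in 11.2% and 11.3% of cells of the Gzmk gate, beside 1.20% and 1.36% of naive-like cells. Markers of 2 other lymphocyte types were more common in the Gzmk gate than in naive-like cells. At least 1 of 4 natural killer genes (Ncr1, Klrb1c, Eomes, Gzma) was found in 72.0% of the recipient's Gzmk cells and 70.6% of the donor's, beside 7.22% and 8.43% of naive-like cells, and Ncr1, the defining one, was at 0 in both Gzmk gates. At least 1 of 5 gamma delta genes was found in 20.2% and 16.6%, beside 2.41% and 2.73%. Of the natural killer list, Gzma was found in 2.27% of recipient Gzmk cells led by Trbv16 and 9.13% of those led by other segments. In the donor it was found in 1.59% of Gzmk cells led by Trbv17 and 7.11% of the others. Shares of Eomes and Klrb1c alone are not given here. A leading segment was given to 98.9% of recipient and 98.4% of donor Gzmk cells. The part of cells of all these types in the results was not tested. The libraries shared 65 kept barcodes, and of 63 with a leading segment in both, 6 had the same one.

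Over all kept cells the family was used broadly in both libraries, and no segment led more than 10.6% of cells. Trbv13-2 led 9.14% of old recipient cells (8.39 to 9.94), followed by Trbv16 and Trbv29 at 7.81% each. In the young donor Trbv12-1 led 10.6% (9.96 to 11.4), followed by Trbv19 at 8.38% and Trbv13-2 at 7.63%. The widest gap as a fold was that of Trbv5, at 5.77% of recipient cells (5.17 to 6.42) and 2.78% of donor cells (2.43 to 3.18). Trbv12-1 stood the other way, at 5.63% (5.03 to 6.27) against 10.6%. For 10 of the 22 segments the intervals of the libraries did not overlap. A leading share is defined only for segments, so counts of intervals, here and in the gates, have no share over all genes beside them. The recipient was higher for Trbv1, Trbv5, Trbv13-2, Trbv13-3, Trbv16 and Trbv29, and the donor for Trbv12-1, Trbv12-2, Trbv17 and Trbv19. In UMIs summed over all kept cells, 2 of the 24 segments that passed 20 UMIs over both libraries differed at least 2-fold, Trbv5 (log2 ratio of recipient over donor 1.47) and Trbv21 (1.05, on 21 and 16 UMIs). Of all 12215 genes that passed, 4.19% differed that much, 2.6% with the recipient higher and 1.6% with the donor higher. The family as a whole took 1645 UMIs per 1000000 in the recipient and 1286 in the donor.

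**Figure D1:**
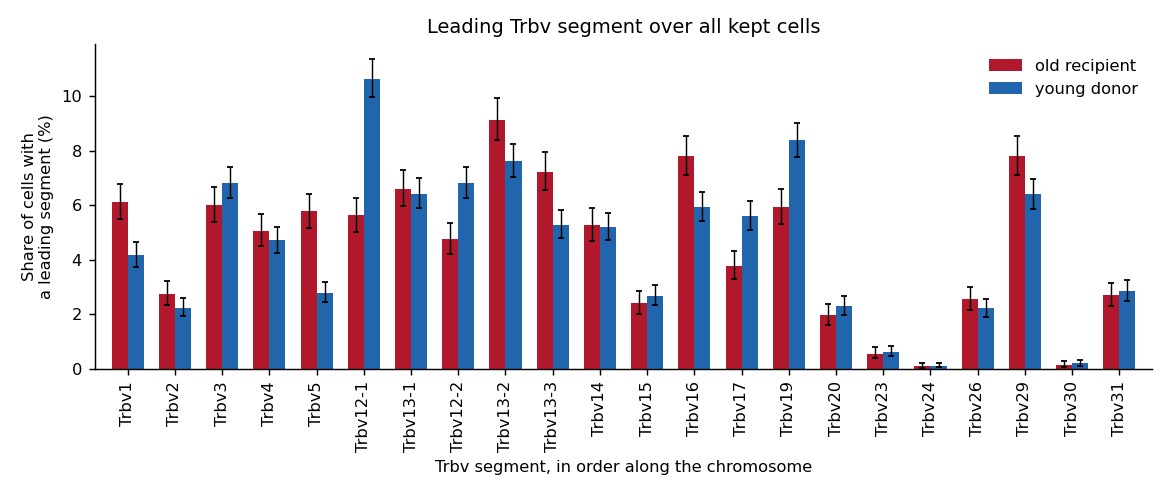
Share of kept cells led by each Trbv segment (%, vertical axis), with segments in their order along the chromosome, in the old recipient (red) and young donor (blue). Bars start at 0 and lines are exact 95% intervals for counting error, and Trbv12-1 in the donor, at 10.6%, is the highest bar.

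Of the 35 segments, 13 led no cell, and of these 9 had no UMI in either library. The silent ones are Trbv6, Trbv7, Trbv9, Trbv11, Trbv12-3, Trbv18, Trbv25, Trbv27 and Trbv28, all annotated as pseudogenes. Trbv8 and Trbv10, with 1 UMI in the recipient and 3 in the donor, and Trbv22, with 22 and 21 UMIs, are pseudogenes too. A count of 0 leading cells allows a share of up to 0.0676% of recipient cells and 0.0477% of donor cells (upper ends of the exact intervals). Among the 22 segments annotated as variable genes, Trbv21 is the 1 that led no cell. Trbv24, annotated as a pseudogene, led 5 and 8 cells with a median of 2 UMIs. Trbv30 led 8 and 15 cells and Trbv23 led 30 and 48, so both were rare in both libraries.

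Cells were then split by fixed cuts on the UMIs of single genes. These gates are ranges of counts and not cell types, and a cell can lie in more than 1 of them. The naive-like gate held cells with at most 3 UMIs of Ccl5, a chemokine of antigen-experienced T cells, and none of Ly6c2. The Ly6c2 gate held cells with at least 2 UMIs of Ly6c2, at least 10 of Ccl5 and none of Gzmk. The other gates held cells with at least 2 UMIs of Gzmk, at least 1 of Cx3cr1, the fractalkine receptor of effector cells, or at least 1 of Fcer1g, a signalling adaptor that innate-like T cells can express. In the old recipient they held 1579 naive-like, 1133 Ly6c2, 1186 Gzmk, 394 Cx3cr1 and 182 Fcer1g cells, and in the young donor 807, 3872, 1285, 349 and 54. Of the Cx3cr1 cells, 240 and 233 were also in the Gzmk gate. Median UMIs per cell were 7002 and 7427 in the naive-like gate and 4721 and 4705 in the Gzmk gate.

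In naive-like cells the libraries used the segments alike within counting error. The intervals overlapped for all 22 segments, and 2 of 22 segments that passed differed at least 2-fold in UMIs, Trbv31 (recipient higher) and Trbv30 (donor higher), beside 2.72% of 10029 genes (1.71% with the recipient higher and 1.02% with the donor higher). The most common segment was Trbv13-2 in the recipient at 8.46% (7.11 to 9.96) and Trbv12-1 in the donor at 7.80% (6.02 to 9.91), with Trbv29 also at 7.80%. Moving 10.4% of the cells from segment to segment would make the usage of the libraries equal. The naive-like gate of the same library is the reference for the other gates.

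The Ly6c2 gate stayed close to naive-like usage, with 1 segment apart from it in each library. In the old recipient Trbv29 led 11.9% (10.1 to 14.0; 129 of 1082 cells) against 6.25% (5.09 to 7.57) of naive-like cells. These Trbv29 cells had a median of 5638 UMIs, against 8104 in the other cells of the gate. With gates drawn after thinning to 3500 UMIs the share was 8.44% (6.66 to 10.5; 72 of 853 cells), and its interval overlapped that of naive-like cells at 6.28% (5.17 to 7.55). In the young donor Trbv12-2 led 9.13% (8.22 to 10.1; 339 of 3713 cells) against 4.73% (3.35 to 6.46). Between the libraries, Trbv29 and Trbv14 were higher in the recipient and Trbv12-2 and Trbv16 in the donor, with intervals that did not overlap. Trbv14 led 8.87% of recipient cells (7.25 to 10.7) and 3.88% of donor cells (3.28 to 4.55), and Trbv16 4.71% (3.53 to 6.15) and 7.62% (6.79 to 8.52). The difference to move was 14.1% of cells. Of the 22 segments that passed, 1 differed 2-fold in UMIs, Trbv23 (donor higher), beside 4.08% of 11164 genes (2.45% with the recipient higher and 1.63% with the donor higher).

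Among Gzmk cells the libraries used different segments. In the old recipient Trbv16 led 15.0% of cells (13.0 to 17.2; 176 of 1173), Trbv13-2 led 11.3% (9.50 to 13.2) and Trbv1 led 9.55% (7.93 to 11.4). In the young donor Trbv17 led 19.9% (17.8 to 22.2; 252 of 1265), Trbv12-1 led 18.1% (16.02 to 20.3) and Trbv19 led 12.8% (11.01 to 14.8). These 3 segments together held 50.8% of donor Gzmk cells (48.0 to 53.6), and the leading 3 of the recipient held 35.8% of its Gzmk cells (33.1 to 38.6). The leading segments of the recipient were rare in the donor. Trbv16 led 0.632% of donor cells (0.273 to 1.24; 8 cells), Trbv13-2 0.791% (0.380 to 1.45; 10 cells) and Trbv1 1.03% (0.548 to 1.75; 13 cells). Of the donor's leading segments, Trbv12-1 led 3.41% of recipient cells (2.45 to 4.61) and Trbv19 3.50% (2.52 to 4.71). Trbv17 led 7.33% of recipient cells (5.91 to 8.98), above its 3.12% (2.31 to 4.12) in naive-like recipient cells.

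Intervals of the libraries did not overlap for 13 of 22 segments in the Gzmk gate, 7 higher in the recipient and 6 higher in the donor. That count has no share over all genes beside it, whereas the summed UMIs do. In summed UMIs, 15 of the 21 segments that passed differed at least 2-fold, beside 3.05% of 10181 genes. Of these, 7 were higher in the recipient (1.93% of genes) and 8 in the donor (1.12%). The median log2 ratio of the 21 segments was 0.11, beside 0.04 over all genes that passed, so segments lay on both sides. Against its own naive-like gate, 5 segments were higher and 6 lower in the recipient, and 5 were higher and 8 lower in the donor. Moving 28.2% of recipient cells and 41.6% of donor cells would restore naive-like usage, and 54.6% would have to move to make the libraries equal.

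Of the 13 segments with intervals apart in the Gzmk gate, 7 lie outside the naming rule and are given here because of that gap, chosen after their values were seen. Trbv5 led 8.70% of recipient cells (7.15 to 10.5) and 0.237% of donor cells (0.0489 to 0.691), which is 3 cells. Trbv13-3 led 6.31% (4.99 to 7.86) and 0.395% (0.128 to 0.920), and Trbv12-2 led 6.99% (5.60 to 8.60) and 2.21% (1.48 to 3.18). Trbv26 led 1.79% (1.11 to 2.72) and 0.316% (0.0862 to 0.808). On the donor side Trbv14 led 9.41% (7.85 to 11.2) against 1.62% (0.978 to 2.52) in the recipient, and Trbv3 led 10.1% (8.51 to 11.9) against 5.80% (4.53 to 7.29). Trbv31 led 2.61% (1.80 to 3.64) against 0.767% (0.351 to 1.45). For the other 9 segments the intervals overlapped, among them Trbv4 at 4.43% and 5.06% and Trbv13-1 at 4.52% and 4.90%. The close relatives Trbv12-1 and Trbv12-2, whose ends are printed above, thus lay on opposite sides.

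**Figure D2:**
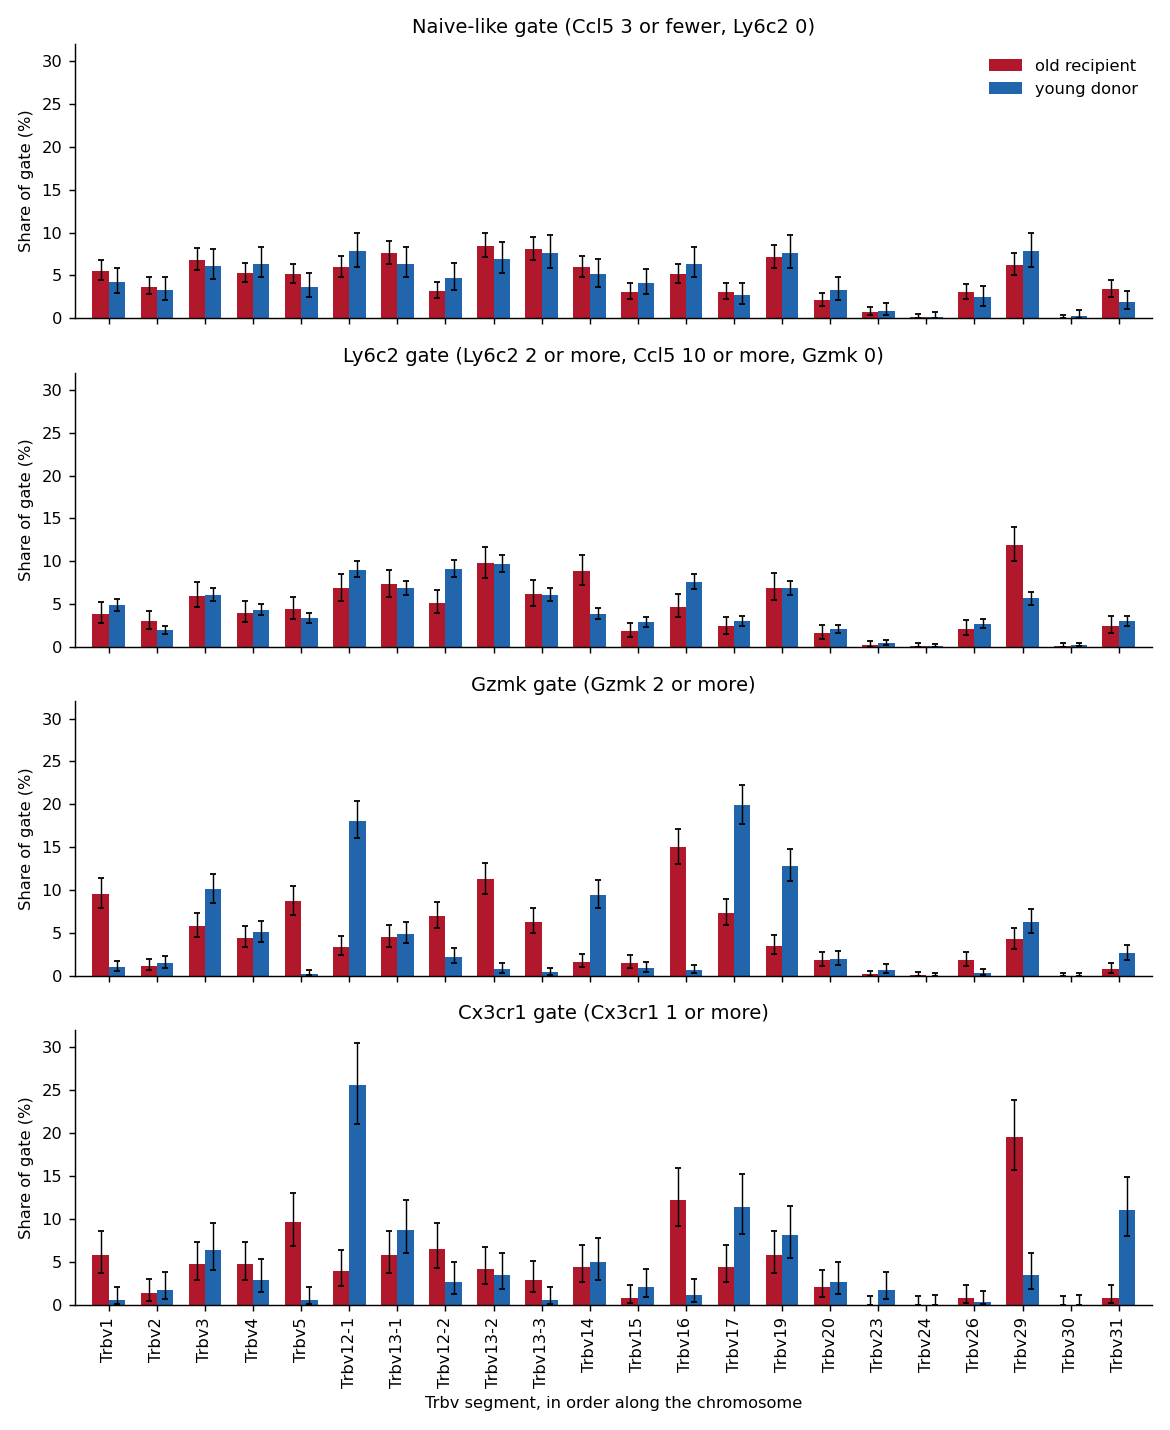
Share of the cells of a gate led by each Trbv segment (%, vertical axis, same scale in each panel) in the old recipient (red) and young donor (blue), with exact 95% intervals for counting error. In the naive-like and Ly6c2 panels no bar is over 11.9%, whereas in the Gzmk panel Trbv17 of the donor reaches 19.9% and in the Cx3cr1 panel Trbv12-1 of the donor reaches 25.6%.

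The Cx3cr1 gate also differed between the libraries, with partly other segments than the Gzmk gate. In the old recipient Trbv29 led 19.5% (15.7 to 23.9; 75 of 384 cells), Trbv16 led 12.2% (9.13 to 15.9) and Trbv5 led 9.64% (6.88 to 13.0). In the young donor Trbv12-1 led 25.6% (21.1 to 30.5; 88 of 344 cells), Trbv17 led 11.3% (8.19 to 15.2) and Trbv31 led 11.05% (7.94 to 14.8). Trbv31 led 0.781% of recipient cells (0.161 to 2.27; 3 cells) and Trbv29 led 3.49% of donor cells (1.82 to 6.01). Of the recipient Trbv29 cells in this gate 24.0% were also Gzmk cells, and of the donor Trbv31 cells 28.9%, whereas this share was 80.9% for recipient Trbv16 and 81.8% for donor Trbv12-1. Intervals did not overlap for 7 of 22 segments, 4 higher in the recipient and 3 in the donor, again with no share over all genes beside this count. In summed UMIs 12 of 21 segments that passed differed at least 2-fold, 7 higher in the recipient and 5 in the donor, beside 3.34% of 8670 genes (2.31% with the recipient higher and 1.04% with the donor higher).

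Some of these shares moved by more than 1.5 times when the gate was drawn in another way. Recipient Trbv29 cells in the Cx3cr1 gate had a median of 3172 UMIs, and Trbv29 held 11.1% of the gate once all cells were brought to 3500 UMIs by thinning, which drops shallower cells. The interval of that share (7.18 to 16.2; 23 of 207 cells) overlapped those of naive-like recipient cells and of the donor gate after thinning, at 6.28% (5.17 to 7.55) and 4.21% (1.84 to 8.13). Among Cx3cr1 cells in no other gate, Trbv29 held 28.0%, Trbv16 held 5.33%, donor Trbv17 held 3.95% and donor Trbv31 held 18.4%. By its definition this set leaves out cells that were also Gzmk cells. Those made up 80.9% of recipient Trbv16 and 87.2% of donor Trbv17 cells of the gate, beside 24.0% of recipient Trbv29 and 28.9% of donor Trbv31. With at least 2 UMIs of Cx3cr1, Trbv31 held 19.4%. The cause of these movements was not tested.

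The Fcer1g gate showed no segment apart from naive-like usage in either library, and it was small. Trbv3 led 11.3% of recipient cells (7.04 to 16.9; 20 of 177) and Trbv13-2 led 12.2% of donor cells (4.63 to 24.8; 6 of 49). Intervals of the libraries overlapped for all 22 segments, and with 49 donor cells small differences were not detectable. In UMIs 10 of 18 segments that passed differed at least 2-fold, beside 8.4% of 6606 genes, on counts from few cells. Of these, 6 were higher in the recipient (6.78% of genes) and 4 in the donor (1.62%). Of the Fcer1g cells, 161 of 182 in the recipient and 37 of 54 in the donor were also in the Ly6c2 gate. Trbv3 led 2 of the 10 recipient Fcer1g cells with a leading segment that lay in no other gate.

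The evenness of usage was summarised as the chance that a pair of cells drawn from a gate shares its leading segment. Naive-like cells gave 5.77% (5.59 to 5.96) for the recipient and 5.72% (5.46 to 5.98) for the donor, which equals 17.3 and 17.5 equally used segments. In the Ly6c2 gate it was 6.62% (6.27 to 6.97) and 6.26% (6.11 to 6.42), or 15.1 and 15.96 segments. In the Gzmk gate the recipient had 7.82% (7.36 to 8.28) and the donor 11.8% (11.1 to 12.5), or 12.8 and 8.45 segments. The donor Gzmk cells were thus less evenly spread than the recipient ones, with intervals that did not overlap. In the Cx3cr1 gate the chance was 8.73% (7.54 to 9.92) and 11.5% (9.62 to 13.3), with intervals that overlapped, or 11.5 and 8.73 segments. In the Fcer1g gate it was 6.34% (5.47 to 7.22) and 5.19% (3.50 to 6.87).

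**Figure D3:**
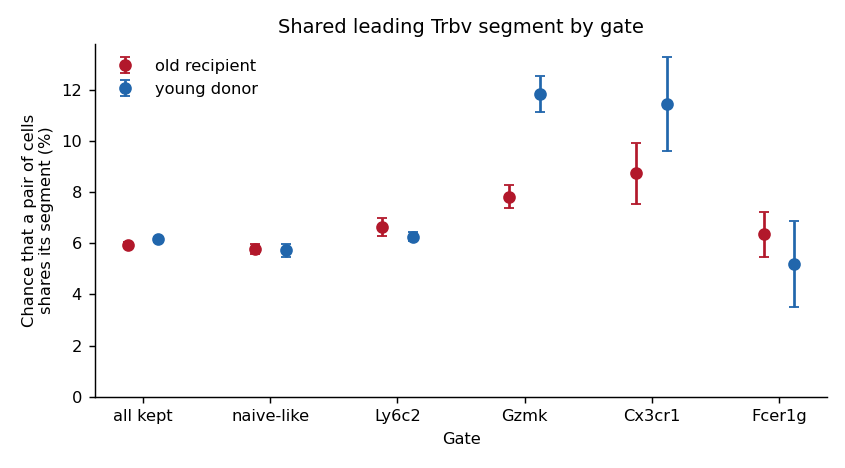
Chance that a pair of cells shares its leading Trbv segment (%, vertical axis, from 0) for all kept cells and each gate in the old recipient (red) and young donor (blue). Points are estimates and lines 95% intervals for counting error, and the donor lies above the recipient in the Gzmk gate at 11.8% against 7.82%.

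Alpha chain partners were read in the same way from Trav genes, summed by subgroup number because the locus holds near-identical copies. A leading subgroup could be given to 74.9% of the recipient's cells and 69.4% of the donor's. In naive-like cells the most common subgroup of a segment held between 13.2% and 22.4% of its cells in the recipient (19 segments with at least 20 cells) and between 11.6% and 23.8% in the donor (13 segments). In the Gzmk gate this share had a median of 38.2% over 11 recipient segments and 62.5% over 8 donor segments with at least 50 cells.

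In recipient Gzmk cells Trbv13-2 was found with Trav12 in 88 of 110 cells with both readings (80%, 71.3 to 87.0), against 18.5% of cells led by other segments and 8.33% of naive-like Trbv13-2 cells. Trbv1 was found with Trav13 in 57 of 100 cells (57.0%, 46.7 to 66.9), against 24.2% of other cells and 8.45% of its naive-like cells. Trbv16, the most common segment there, stood closer to other cells, since Trav13 was found in 33.1% (25.0 to 42.0) beside 26.9% of other cells. In naive-like Trbv16 cells the share of Trav13 was 12.1%. Of the 215 other cells with Trav13, 57 were led by Trbv1, 59 by Trbv13-3 and 23 by Trbv12-2. The 8 segments outside the naming rule with at least 50 cells ranged widely. Trbv13-3 was found with Trav13 in 59 of 67 cells (88.1%, beside 23.0% of other cells), Trbv5 with Trav12 in 72 of 98 (73.5%, beside 20.1%) and Trbv17 with Trav7 in 37 of 68 (54.4%, beside 9.08%). The most common partner held 36.6% of Trbv4 cells (Trav7, beside 11.3%) and 29.6% of Trbv3 cells (Trav10, beside 2.06%). It lay closer to other cells for Trbv29 (Trav12, 38.2% beside 25.3%) and Trbv12-2 (Trav13, 37.7% beside 27.0%), and for Trbv13-1 it was lower (Trav12, 21.4% beside 25.9%, on 28 cells). The same subgroups held 10%, 11.4% and 8.89% of naive-like Trbv29, Trbv12-2 and Trbv13-1 cells.

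In donor Gzmk cells Trbv19 was found with Trav14 in 95 of 136 cells (69.9%, 61.4 to 77.4), against 3.61% of other cells and 12.8% of naive-like Trbv19 cells. Trbv12-1 was found with Trav9 in 41 of 66 cells (62.1%, 49.3 to 73.8), against 1.69% of other cells, and Trbv17 with Trav3 in 22 of 56 (39.3%, 26.5 to 53.2), against 1.97%. For the latter pair of segments most cells gave no alpha reading. A leading Trav subgroup was found in 28.8% of donor Trbv12-1 cells and 22.2% of Trbv17 cells of the gate, beside 62.8% and 65.3% of cells led by other segments. Trac, the alpha constant gene, was found in 57.6% (51.0 to 64.1) and 48.0% (41.7 to 54.4) of these cells, beside 55.4% and 57.7% of the others. Outside the naming rule, Trbv4 was found with Trav7 in 49 of 54 cells (90.7%), Trbv3 with Trav7 in 88 of 111 (79.3%) and Trbv14 with Trav6 in 44 of 70 (62.9%). The share was 48.4% for Trbv13-1 with Trav12 (15 of 31 cells) and 44.6% for Trbv29 with Trav16 (29 of 65).

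**Figure D4:**
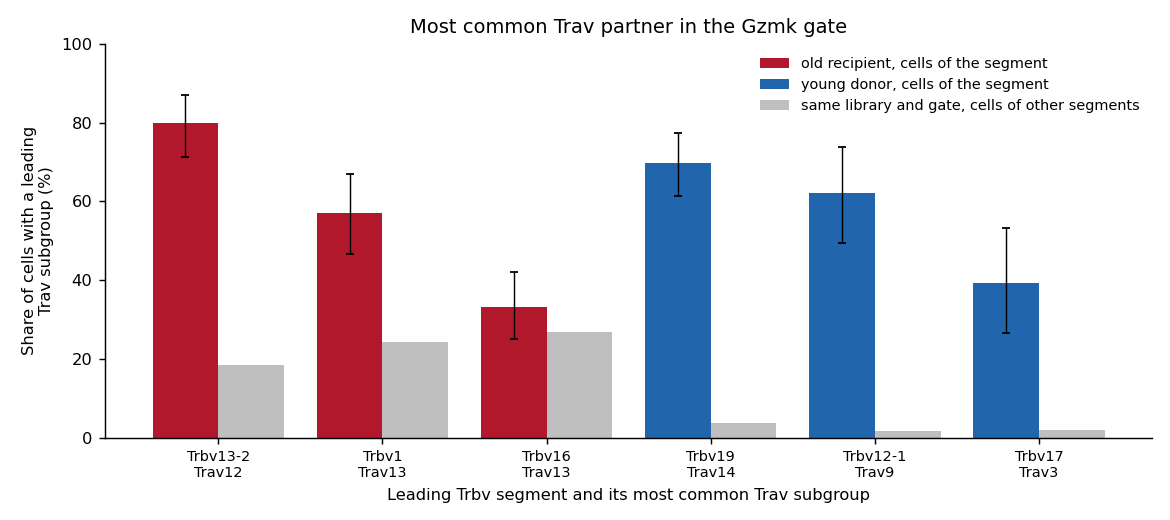
Share of cells with a leading Trav subgroup that carried the most common subgroup of the segment (%, vertical axis, from 0) for the 3 most common Trbv segments of the Gzmk gate in the old recipient (red) and young donor (blue), with exact 95% intervals, beside cells of the same gate and library led by other segments (grey). Trbv13-2 with Trav12 reaches 80% against 18.5%, while Trbv16 with Trav13 is at 33.1% against 26.9%.

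Partners in the other gates were fewer. In the recipient Cx3cr1 gate Trbv29 was found with Trav12 in 30 of 56 cells (53.6%, 39.7 to 67.0), against 17.6% of other cells, and the same pair made up 38 of 98 Trbv29 cells (38.8%) of the Ly6c2 gate. Of all Trbv29 cells in the latter gate 27.9% were also Cx3cr1 cells. In the donor Cx3cr1 gate Trbv31 was found with Trav12 in 14 of 18 cells (77.8%, 52.4 to 93.6), against 4.62% of other cells. In the recipient Ly6c2 gate Trbv14 was found with Trav16 in 38 of 70 cells (54.3%, 41.9 to 66.3), against 6.75% of other cells and 5.26% of naive-like Trbv14 cells. The donor Ly6c2 gate showed weaker pairs, of which the most common was Trbv12-2 with Trav13 at 22.8% (17.8 to 28.5) against 13.2%.

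The constant genes Trbc1 and Trbc2 are near-identical copies, so their UMIs may be split unevenly. Trbc1 led 11.1% of the recipient's and 9.91% of the donor's cells that had a leading constant gene. None of 221 donor Gzmk Trbv17 cells was led by Trbc1, for which the exact interval reaches 1.66%, beside 7.54% of cells led by other segments. In the recipient Gzmk gate Trbc1 led 25 of 70 Trbv17 cells (35.7%), beside 2.70% of Trbv4 cells and 32.9% of Trbv12-2 cells. Joining (Trbj) genes gave only 367 and 492 UMIs and were found in 5.93% and 5.62% of cells, so few cells could be read. Among the Gzmk cells led by Trbv17 with a joining gene, Trbj2-2 was that gene for 6 of 6 in the recipient, where Trbv17 is outside the naming rule, and for 5 of 8 in the donor. For the other named segments the most common joining gene held fewer. It held 4 of 6 recipient Trbv13-2 cells (Trbj1-3), 2 of 7 Trbv16 cells (Trbj2-1) and 2 of 7 Trbv1 cells (Trbj2-5). In the donor it held 3 of 7 Trbv12-1 cells (Trbj1-6) and 1 of 5 Trbv19 cells (Trbj1-1).

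The other genes of the receptor complex were read in the same cells. Of 25 joining, diversity, constant, CD3 and CD8 genes, 20 passed 20 UMIs over all kept cells and 1 differed at least 2-fold, Trbj1-6 (log2 ratio 1.49, on 25 and 14 UMIs), beside 4.19% of all genes. The lowest ratio among the 20 was -0.01, for Trbj2-2. Trac stood at 177.9 and 177.4 UMIs per 1000000, and Trbc2 at 495.6 and 402.4. In the Gzmk gate 10 of the 25 passed, none differed 2-fold, and their ratios lay between -0.07 for Cd8b1 and 0.89 for Trbc1, beside the 15 of 21 Trbv segments that did. None of 9 differed 2-fold in the Cx3cr1 gate. In naive-like cells 1 of 11 did, Trbj2-1 (recipient higher, on 18 and 3 UMIs), beside 2.72% of all genes, and in the Ly6c2 gate 1 of 17, Trbj1-1 (donor higher, on 2 and 22 UMIs), beside 4.08%. In the Fcer1g gate 2 of 9 differed 2-fold, Cd8a and Cd8b1, both higher in the donor (log2 ratio of Cd8b1 -1.14), beside 8.4% of all genes. Trbd1, Trbd2, Trbj1-7 and Trbj2-6 had no UMI in either library.

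Cells of a segment within a gate differed in other genes, which were picked with earlier results of these data in view. The segments shown are not all that differed. Klra1, the gene of the inhibitory receptor Ly49A, was found in 44.1% of donor Gzmk Trbv12-1 cells (37.6 to 50.8) and in 0.483% of the other Gzmk cells. In the donor Cx3cr1 gate it was found in 62.5% of Trbv12-1 cells (51.5 to 72.6) and in 0.781% of the others. It was found in 0.128% of naive-like donor cells, at a median of 7458.5 UMIs against 5233 in the Gzmk Trbv12-1 cells. In the recipient it was at 0 in all Gzmk and Cx3cr1 cells with a leading segment. Klra1 belongs to a family of close copies, so its reads may be shared with relatives.

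Gzma, the granzyme A gene, was found in 65.3% of recipient Cx3cr1 Trbv29 cells (53.5 to 76.0), beside 21.0% of the other Cx3cr1 cells and 0.325% of naive-like cells. In the donor it was found in 26.3% of Cx3cr1 Trbv31 cells (13.4 to 43.1), beside 12.4% of the others. Both segments had fewer cells with Gzmk in this gate, 44.0% for Trbv29 and 47.4% for Trbv31, beside 82.2% and 86.9% of the others. Among recipient Gzmk cells, Pdcd1, the gene of the checkpoint receptor PD-1, was found in 60.8% of Trbv5 cells beside 25.8% of the others, and Penk, the proenkephalin gene, in 32.4% beside 5.23%. In donor Gzmk cells Pdcd1 was found in 66.4% of Trbv14 cells beside 23.5% of the others. The transcription factor gene Ikzf2 (Helios) was found in 47.3% of recipient Gzmk Trbv13-3 cells beside 16.01% of the others.

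Many cells held a second Trbv segment with at least 2 UMIs, with 21.6% of the recipient's and 18.2% of the donor's cells that had a leading segment. These cells had medians of 8405 and 9153 UMIs, against 6742.5 and 7771 in the rest. Trbv13-2 was the most common second segment in both libraries for cells led by Trbv13-3, Trbv14, Trbv15, Trbv16, Trbv17 and Trbv19, which follow it towards the joining genes. It held that place in both libraries for Trbv29 too (9 and 12 cells), farther along. On its other side it did so for Trbv12-2 (16 and 8 cells) and Trbv5 (5 and 4 cells). Trbv13-3 is also its closest relative by sequence (identical at 90.6%), and any part of this was not tested. Among cells led by Trbv13-3 its share was 23.1% (19.0 to 27.6) in the recipient's library and 14.0% (10.8 to 17.7) in the donor's, and among those led by Trbv14 it was 16.03% and 14.9%. For Trbv15 the shares were 9.16% and 7.73%, for Trbv16 7.51% and 5.01%, and for Trbv19 4.32% and 6.49%. Trbv17 in the donor was higher, at 16.6% (13.2 to 20.5), against 8.25% (4.88 to 12.9) in the recipient. Farther along, Trbv20, Trbv26, Trbv29 and Trbv31 gave shares between 0.935% and 2.72% in the recipient and between 0.455% and 3.39% in the donor. The 8 segments on the other side of Trbv13-2 gave shares between 0.651% (Trbv12-1) and 6.18% (Trbv12-2) in the recipient and between 0% (0 to 2.11; Trbv2) and 2.48% (Trbv1) in the donor. The shares did not fall evenly with distance, and a relation to position was not tested. Over all pairs, a second segment lay before the leading one in 1.55% and 1.30% of the possible cases and after it in 0.876% and 0.709%. Droplets with 2 cells were not removed, and their part in these shares was not tested.

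**Figure D5:**
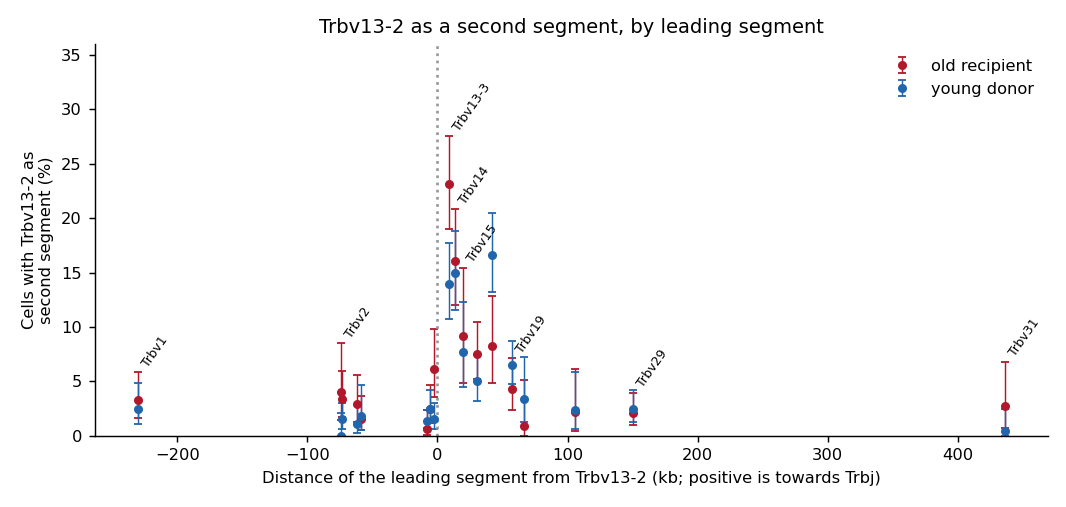
Share of cells with at least 2 UMIs of Trbv13-2 beside another leading segment (%, vertical axis, from 0), against the distance of the leading segment from Trbv13-2 in kb (horizontal axis), in the old recipient (red) and young donor (blue), with exact 95% intervals. The highest point is Trbv13-3 of the recipient at 23.1%, the 6 segments from Trbv13-3 to Trbv19 lie between 4.32% and 23.1%, and donor Trbv17 is at 16.6%, while points left of 0 reach 6.18%. Trbv31, the farthest point, lies beyond the joining and constant genes.

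The cuts left many cells close by. Gzmk had exactly 1 UMI in 202 recipient and 246 donor cells, which lie just outside, and exactly 2 in 150 and 226 cells just inside. Trbv16 led 13.0% of recipient cells just outside, 15.6% just inside and 14.9% with 3 or more. Donor Trbv17 led 6.36% just outside, 8.60% just inside and 22.3% with 3 or more, so its share was higher among cells with more Gzmk. Cx3cr1 had exactly 1 UMI in 224 of the 394 cells of the gate in the recipient and 223 of 349 in the donor, and in these Trbv29 led 15.98% and Trbv12-1 led 26.8%. Fcer1g had exactly 1 UMI in 64 of the 182 cells of its gate in the recipient and 29 of 54 in the donor.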

How the data were processed

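The authors deposited raw UMI counts per gene and barcode, with no normalization. Cell Ranger, Seurat and mm10 were used, per the submitters' processing notes. The counting software was version 3.0.2, per the file headers. Annotation release and cell calling are not given in the sources used here, and the receptor-enriched libraries were not used here.

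The counts were read with Python 3.11.15, numpy 2.4.6 and pandas 2.3.3, intervals came from scipy 1.17.1, and figures from matplotlib 3.10.9. No doublet caller was run, because the cell filter and gates were kept as fixed for this family. Shares have exact Clopper-Pearson intervals and sums of UMIs per 1000000 exact Poisson ones. The chance of a shared segment was estimated without replacement. Features were matched to GENCODE M21, and sequences were aligned with Biopython 1.88. The procedure was tested on simulated data.

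Members, gates and gene lists were chosen with earlier results of these data known. Segments were named over all cells when they led at least 3% of a library, or led 20 cells with shares 1.5-fold apart. In gates they were named when among the 3 most common, or with at least 10 cells and 3 times their naive-like share. Partners are the most common one of a named segment with at least 20 cells. Other segments are said to be outside this rule. Alternatives changed the cell filter, the leading segment rule, the gates, the scaling and the UMI minimum.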

Additional observations from a re-analysis of the deposited data

Results flagged for a closer look

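In 11 cases a segment was above its naive-like share in 1 library and below it in the other, with intervals that did not overlap the naive-like one in either library. Without the condition on intervals there were 43 such cases over the 4 gates. These were 10, 10, 12 and 11 of 22 segments in the Ly6c2, Gzmk, Cx3cr1 and Fcer1g gates. The Ly6c2 and Fcer1g gates hold none of the 11 cases. Each of these differences between the libraries was not tested, since there is 1 library per group. The values are log2 ratios of the gate share over the naive-like share, given as the recipient value minus the donor value. In the Gzmk gate the recipient was on the higher side for Trbv16 (4.88), Trbv5 (4.73), Trbv1 (2.83) and Trbv12-2 (2.23). The donor was on the higher side for Trbv14 (-2.77), Trbv12-1 (-2.03) and Trbv19 (-1.77). In the Cx3cr1 gate the recipient was on the higher side for Trbv16 (3.71), Trbv5 (3.58) and Trbv29 (2.81), and the donor for Trbv31 (-4.64). Of recipient Cx3cr1 cells, 80.9% of Trbv16 and 73.0% of Trbv5 cells were also Gzmk cells, so their cases in the 2 gates are not independent. Trbv16 led 5.33% (4 of 75) of recipient Cx3cr1 cells in no other gate, beside 5.14% of naive-like cells. The donor shares of Trbv16 and Trbv5 in the Cx3cr1 gate were 1.16% and 0.581%. For Trbv29 the intervals overlapped once gates were drawn after thinning to 3500 UMIs, at 11.1% against 6.28% in the recipient and 4.21% against 7.51% in the donor. Trbv17 is not among them, because its share in the Gzmk gate was above the naive-like share in both libraries, at 7.33% against 3.12% in the recipient and 19.9% against 2.69% in the donor.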

How the results depend on the processing

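Of 874 values recomputed under the alternatives, 802 stayed within the counting interval of the reported value or, for counts of segments, within 1.5 times it. The 386 main values were shares of each gate's most common segment, chances of a shared segment, shares given a leading segment and counts of segments. Among these 54 moved, beside 72 over all 874 values. Sharing ties in equal parts could not move the Trbc1 shares, which were read from cells with 1 leading segment. No paired analysis was possible because each group has 1 library. Leaving out a replicate was not possible for the same reason.

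The share of cells given a leading segment left its interval in 32 of 114 recomputed values, more often than the other kinds of value. The rules of at least 3 UMIs and at least 80% of Trbv UMIs can only lower this share by definition. With at least 3 UMIs of the segment it was 89.7%, 91.1%, 81.7%, 95.0%, 86.8% and 85.2% in all, naive-like, Ly6c2, Gzmk, Cx3cr1 and Fcer1g cells of the recipient and 88.1%, 89.5%, 84.9%, 94.6%, 91.4% and 74.1% in the donor. With at least 80% of the Trbv UMIs in the segment it was 79.0%, 81.1%, 78.0%, 78.9%, 76.9% and 76.4% in the recipient and 80.5%, 83.8%, 78.5%, 81.6%, 80.8% and 75.9% in the donor. Over all deposited barcodes it was 92.8% and 92.3%, and in naive-like cells 86.3% and 72.9%. Under the stricter gates it was 98.4% in naive-like and 99.4% in Gzmk recipient cells, and among cells in 1 gate 100% in Fcer1g recipient cells and 96.2% in Cx3cr1 donor cells.

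The most common segments moved with the gates. After thinning to 3500 UMIs, Trbv29 held 8.44% of the recipient Ly6c2 gate and 11.1% of its Cx3cr1 gate, and Trbv17 held 22.3% of the donor Gzmk gate. Under stricter gates Trbv29 held 24.2% of the recipient Cx3cr1 gate and Trbv17 29.5% of the donor Gzmk gate. Among cells in 1 gate Trbv29 held 9.79% of the recipient Ly6c2 gate and 28.0% of its Cx3cr1 gate, Trbv3 held 20% of the recipient Fcer1g gate (2 of 10 cells) and Trbv12-1 held 17.1% of the donor Cx3cr1 gate.

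The chance that a pair of cells shares its segment was 8.48% and 13.2% in the recipient and donor Gzmk gates after thinning, and 8.43% and 15.8% under the stricter gate. In the recipient Cx3cr1 gate it was 10.4% under the stricter gate and 11.03% among cells in 1 gate, and in the recipient Fcer1g gate it was 8.89% among cells in 1 gate.

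Counts of segments past 2-fold changed mainly with the UMI minimum. With at least 1 UMI they were 4 over all cells and 3 in the Ly6c2 gate, and with at least 100 UMIs they were 1 over all cells, 1 in the naive-like gate and 4 in the Fcer1g gate. With the median of gene ratios for scaling the naive-like count was 1. The counts of 15 in the Gzmk gate and 12 in the Cx3cr1 gate stayed within 1.5 times under all 6 alternatives. The most common Trav partners were recomputed after the data were seen, and 121 of 131 such values stayed within their intervals. Sharing ties in equal parts could not move these values, since partners were read only from cells with 1 leading segment. Apart from the share given a leading segment, which can only fall under the 2 stricter rules for that segment, the cause of each movement was not tested. The number of cells limits the small gates, and the donor Fcer1g gate holds 49 cells with a leading segment.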
